A study of Homo sapiens with 16 samples.

Results

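G-quadruplexes (G4s), folded structures that guanine-rich DNA can form, were mapped in the human lung carcinoma cell line A549, and the loci described here are those that lay off every region carrying H3K4me3, the histone mark of active promoters. The peaks of 3 BG4 lists were merged into 6206 loci wherever they shared 1 base or more, and the 689 loci that shared no base with any peak of the H3K4me3 list were kept, 11.1% of all loci (95% Wilson interval 10.3 to 11.9). The other 5517 loci are called loci on H3K4me3 below. The loci were selected on the called BG4 peaks and on the absence of a called H3K4me3 peak, so neither is a finding here.

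BG4 is an antibody to folded G4 DNA, and CUT&Tag uses an antibody to bring a transposase to its target, which tags the DNA nearby for sequencing. All cells carried an siRNA, given at 71 nM for 48 hours. The BG4 lists come from cells given a control siRNA (siControl), siRNA against BAZ2A or siRNA against BAZ2B, and the H3K4me3 list from siControl cells, with 4 labelled replicates in each of the 4 groups. H3K4me3 was therefore known in siControl only, and a locus counted as outside H3K4me3 in a knockdown was outside the siControl regions. Per the labels, each list keeps peaks found in at least 2 replicates and takes their positions from 1 replicate. Peak names show that each list's positions and folds come from 1 run, and that run could not be matched to a labelled replicate. The files hold 1 list per group and no value per replicate, so no difference between conditions could be tested, and intervals below cover counting error over loci only. The lists held 3332 (siControl), 4257 (siBAZ2A), 4865 (siBAZ2B) and 18596 (H3K4me3) peaks. The sources used here give neither the read depth nor whether replicates were separate cultures.

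As background, most G4 structures detected in chromatin lie in open, nucleosome-poor promoters, where H3K4me3 is also found. Guanine-rich repeats elsewhere can fold too, above all the repeats at telomeres and the ribosomal RNA gene arrays. BAZ2A, also known as TIP5, is the defining subunit of the nucleolar chromatin remodeller NoRC, which silences ribosomal RNA genes and also acts at centromeric and telomeric heterochromatin. BAZ2B is its close relative and a subunit of other chromatin remodelling complexes.

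Loci outside H3K4me3 were mostly found in a single list. Of the 689, 405 were held by 1 list only, 58.8% (55.1 to 62.4), where 37.6% of all loci and 35.0% of loci on H3K4me3 (33.8 to 36.3) were. All 3 lists held 115 of them, 16.7% (14.1 to 19.7), against 37.4% of all loci and 40.0% of loci on H3K4me3 (38.7 to 41.3). The siBAZ2B list, the longest, alone held 197, 28.6% (19.2% of all loci). siControl, the shortest list, alone held 108, 15.7% (6.27% of all loci), and siBAZ2A alone held 100, 14.5% (12.2% of all loci). Single-list loci were thus a larger share outside H3K4me3 than over all loci for each list, with the widest ratio for siControl.

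The siBAZ2A list held fewest of these loci although it was longer than siControl. It held 299 of the 689, 43.4% (39.7 to 47.1), where siControl held 329, 47.8% (44.0 to 51.5), and siBAZ2B held 460, 66.8% (63.2 to 70.2). On H3K4me3 the order of the first 2 was the opposite, with 71.5% of loci (70.3 to 72.6) in siBAZ2A and 54.3% (53.0 to 55.6) in siControl. The pairs of lists showed the same. siControl and siBAZ2B together, without siBAZ2A, held 85 outside loci, 12.3% (6.17% of all loci), while siControl and siBAZ2A without siBAZ2B held 21, 3.05% (3.71% of all loci). Both knockdowns without siControl held 63, 9.14% (15.1% of all loci).

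**Figure D1:**
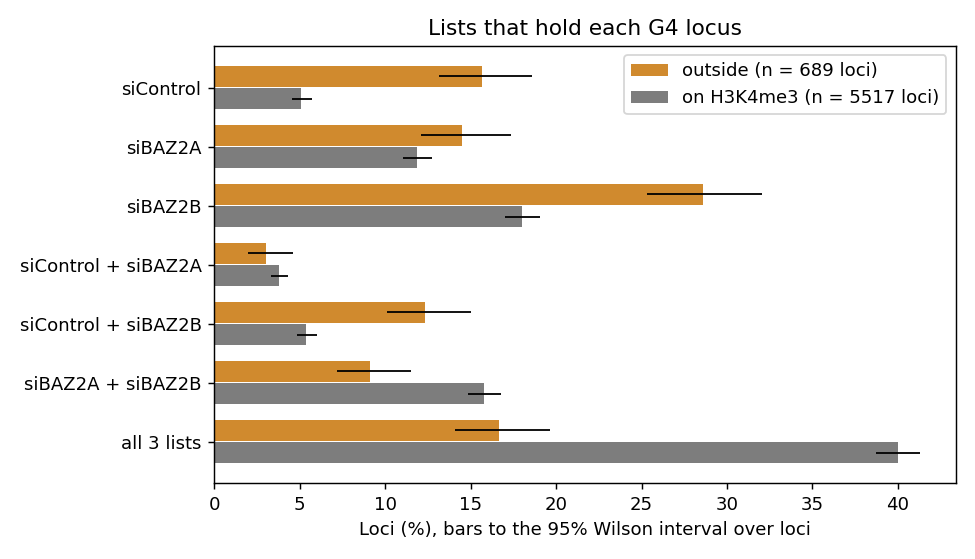
Share of loci (x axis, percent) held by exactly the lists named on the y axis, for the 689 loci outside H3K4me3 and the 5517 on it, with lines showing the 95% Wilson interval over loci. Loci in all 3 lists made up 16.7% outside and 40.0% on H3K4me3, and those in siControl and siBAZ2B only 12.3% and 5.40%.

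Against siControl, 163 outside loci were gained in siBAZ2A (present there and absent from siControl), 23.7% (27.2% of all loci), and 193 were lost, 28.0% (12.4% of all loci). In siBAZ2B 260 were gained, 37.7% (34.3% of all loci), and 129 lost, 18.7% (9.97% of all loci). Both knockdowns are compared with the same siControl list, so these counts are not independent of each other. Gained and lost refer to the lists only. A gained locus may have had a peak in the siControl run that was left out of the list. The siBAZ2A list therefore lost more outside loci than it gained, while over all loci it gained more than it lost.

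At like strength too, siBAZ2A held a smaller share of the siControl loci outside H3K4me3 than of those on it. Peaks were ranked within their list by the fold enrichment over local background that the authors' peak caller gave, and the percentile is the share of the list's peaks at or below that fold. Among siControl loci between percentiles 20 and 80, siBAZ2A kept 53 of 147 outside loci, 36.1% (28.7 to 44.1), and 82.4% of 1851 loci on H3K4me3 (80.6 to 84.1). siBAZ2B kept 91 of the 147, 61.9% (53.8 to 69.4), and 85.9% on H3K4me3 (84.2 to 87.4). Across the 4 lower quintiles of siControl strength, from the weakest up, siBAZ2A kept 35.6%, 36%, 39.5% and 31.0% of outside loci, with no rise. These quintiles held 146, 75, 43 and 29 outside loci, so the upper shares rest on few. Of loci on H3K4me3 siBAZ2A kept 55.0%, 72.8%, 82.1% and 91.5%. siBAZ2B kept 52.7%, 58.7%, 65.1% and 65.5% of outside loci and 58.3%, 78.1%, 86.1% and 92.9% of those on H3K4me3. The rise in siBAZ2B was thus also smaller outside H3K4me3. In the strongest quintile siBAZ2A kept 31 of 36 outside loci, 86.1%, and 96.5% of those on H3K4me3. siBAZ2B kept 88.9% and 97.6% there.

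Several quantities moved with this difference, and their part in it was not tested. Outside loci were narrower at like strength, with a median width of 486 bp against 778 bp in that middle range. The strength and position of each list come from 1 run, so a property of the siBAZ2A run and an effect of BAZ2A depletion cannot be told apart. With BG4 lists cut to equal length, siBAZ2B kept 51.7% of outside and 66.2% of inside loci in the middle range, and siBAZ2A 29.9% and 74.1%, so the order of the knockdowns on H3K4me3 turned and that outside it did not. When only the stronger 50% of H3K4me3 peaks defined the outside loci, which raised their number to 3261, siBAZ2A kept 78.4% of outside and 79.7% of inside loci in the middle range, and siBAZ2B kept 84.4% and 83.8%. The difference was thus seen at loci without any listed H3K4me3 peak. The larger set holds all 689 of these and adds loci at weaker H3K4me3 peaks. Its shares therefore mix both kinds of loci and cannot test the difference.

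Peak numbers in the files tell which absences also hold in the underlying run. Peaks are numbered along each chromosome in the run they came from, so consecutive numbers on both sides of a place mean that this run had no peak there. Of the 359 outside loci absent from siBAZ2A that had siBAZ2A peaks on both sides, 76 (21.2%) lay where no number was missing, so the run itself had no peak there. For siBAZ2B this was 48 of 222 (21.6%) and for siControl 42 of 349 (12.0%). Loci on H3K4me3 gave lower shares in the same order, 10.8%, 13.5% and 4.41%. Such shares also fall as more numbers of a run are left out of its list. The siControl list left out the largest part of its run, so the shares are not a like measure of absence across lists. At the remaining places at least 1 peak of the run had been left out of the list, and whether it lay at the locus cannot be read from the numbers.

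In strength, most outside peaks stood in the lower part of their list, and a small number stood at its very top. The median outside peak stood at percentile 23.1 of the siControl list (order-statistic interval 19.7 to 28.4), 28.5 of siBAZ2A (23.9 to 34.1) and 35.4 of siBAZ2B (29.9 to 39.1). The corresponding median folds, in the same order, were 5.79, 6.04 and 5.63, against 7.16, 7.09 and 6.23 on H3K4me3. The share of peaks that lay outside fell from 27.5% in the weakest decile of siControl to 3.30% in the ninth and was 7.49% in the strongest. In siBAZ2B it fell from 21.0% to 4.72% in the seventh decile and was 9.03% in the strongest. In siBAZ2A it fell from 14.8% to 1.87% in the eighth and was 2.58% in the strongest. The strongest decile thus held a larger share of outside peaks than each of deciles 7 to 9 in siControl and siBAZ2B, but not in siBAZ2A.

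**Figure D2:**
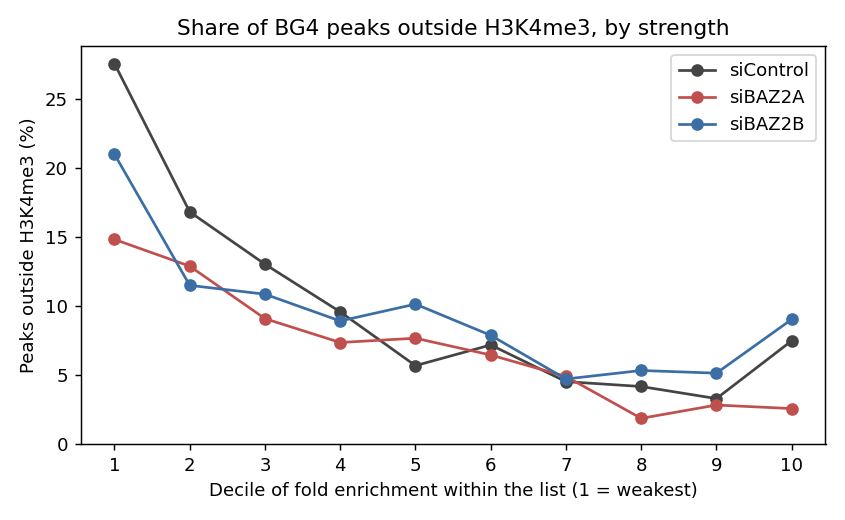
Percent of BG4 peaks outside H3K4me3 (y axis) in each decile of fold enrichment (x axis, 1 is the weakest) for the 3 lists. The share is highest in the weakest decile of every list (27.5%, 14.8% and 21.0% in siControl, siBAZ2A and siBAZ2B) and stands at 7.49%, 2.58% and 9.03% in the strongest.

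At the very top of all 3 lists stood 5 loci outside H3K4me3. The locus chr14:106641447-106641950, near the end of the long arm of chromosome 14, had a fold of 22.4 in siControl, 23.3 in siBAZ2A and 23.1 in siBAZ2B, the first rank of both knockdown lists and rank 3 in siControl. On chromosome 22, chr22:23161861-23162379 had folds of 22.3, 21.1 and 22 in the same order. At chr17:22020533-22020990 they were 20.2, 22.5 and 20.5, and at chr13:110076328-110076817 they were 19.0, 22.1 and 22.4. On chromosome Y, chrY:59362872-59363529 had 22.3, 22.1 and 21.2. These loci ranked between 1 and 9 in every list, and the 4 on numbered chromosomes lay between 155460 and 494297 bp from the nearest H3K4me3 peak. No number of the H3K4me3 run was missing between the H3K4me3 peaks that flank those 4, so that run had no peak beside them that was dropped from the list.

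The chromosome Y locus needs a reservation. The ends of chromosomes X and Y carry the same pseudoautosomal sequence, and a BG4 locus lay at the matching place of chromosome X, chrX:155259883-155260515. It had nearly the same folds, 22.8, 21.7 and 20.4 in siControl, siBAZ2A and siBAZ2B, and shared 608 bases with an H3K4me3 peak. The same sequence was thus counted on H3K4me3 on one chromosome and outside it on the other. The sources used here do not say how reads that map to several places were treated. This gap bears on every locus and not only on those of chromosomes X and Y. No genome sequence was used here, so whether the other loci lie in repeated sequence was not tested. At the short-arm end, chrX:184967-185343 and chrY:134920-135343, whose starts differ by 50047 bp, were both outside H3K4me3 and both held by siControl alone, with folds of 8.60 and 8.32.

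The strongest decile of the lists held few outside loci in siBAZ2A. It held 25 outside loci in siControl, 44 in siBAZ2B and 11 in siBAZ2A, although the siBAZ2A list is longer than that of siControl. The 25 loci of siControl, chosen by their siControl fold alone and with the 5 above among them, had a median percentile of 78.7 in siBAZ2A and 99.5 in siBAZ2B. Of these 25, 9 were in the strongest decile of siBAZ2A and 22 in that of siBAZ2B, and each knockdown lacked 1. The 309 loci on H3K4me3 chosen in the same way had medians of 94.4 and 92.0, with 195 and 168 in the strongest decile. The lower standing in siBAZ2A depended on the measure of strength. With peaks ranked by the −log10 of their q-value the medians of the outside loci were 96.3 and 98.7. With outside defined by the stronger 50% of H3K4me3 peaks they were 93.8 and 94.3. That set of 135 loci adds loci at weaker H3K4me3 peaks to the 25, so its medians mix both kinds. In all, 49 outside loci reached the strongest decile of at least 1 list, of which 14 were absent from siBAZ2A, 5 from siControl and 1 from siBAZ2B. On H3K4me3 736 loci did so, of which 30 were absent from siBAZ2A, 82 from siControl and 6 from siBAZ2B. Most of the 49 were chosen by siBAZ2B or siControl, so these counts of absence are a description only.

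Some single loci had much lower percentiles in siBAZ2A. At chr2:109815718-109816367 the fold was 14.3 in siControl and 10.6 in siBAZ2B (percentiles 98.9 and 98.1) and 5.27 in siBAZ2A (percentile 13.4). On the X chromosome, chrX:19470119-19470575 stood at percentiles 99.0 and 99.7 in siControl and siBAZ2B and at 60.0 in siBAZ2A. In the region next to the centromere of chromosome 9, chr9:69710736-69711344 stood at 99.1 and 99.6 against 55.0, and chr9:67320337-67320933 at 98.6 and 99.3 against 53.9. The strongest outside locus missing from siBAZ2A, chr21:10819367-10819868, had a fold of 13.2 in siControl (rank 51) and 13.9 in siBAZ2B (rank 22). Between the siBAZ2A peaks that flank it 5 numbers were missing, so a peak called in that run and dropped cannot be told apart from none. In the other direction, chr1:228361593-228362201, with a fold of 13.5 in siControl (rank 47) and 7.49 in siBAZ2A, was the only one of the 49 absent from siBAZ2B. These 6 loci were singled out after their values were seen.

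Over all 115 outside loci in the 3 lists, the order of strength was most alike between siControl and siBAZ2B. Spearman's rho of the fold was 0.864 between siControl and siBAZ2B, 0.722 between siControl and siBAZ2A and 0.717 between the knockdowns. For the 2207 loci on H3K4me3 in all 3 lists the values were 0.561, 0.649 and 0.553. These describe loci, which share 1 run per list and are not replicates. Relative to siControl, 25 of the 115 (21.7%) stood at least 20 percentile points lower in siBAZ2A and 18 (15.7%) at least 20 higher. On H3K4me3 these shares were 14.5% and 21.0%. In siBAZ2B 7 (6.09%) stood lower and 24 (20.9%) higher by that margin, against 19.3% and 21.4% on H3K4me3. The share that stood higher in siBAZ2B was thus near that on H3K4me3. The median shift was 0.15 points in siBAZ2A and 3.48 in siBAZ2B. Between the knockdowns, 35 (30.4%) stood at least 20 points lower in siBAZ2A than in siBAZ2B and 12 (10.4%) at least 20 higher. The median difference was -2.35 points. On H3K4me3 the counts were 423 (19.2%) and 505 (22.9%) and the median difference 1.94 points. Over the 115 loci siBAZ2A thus stood lower against siBAZ2B, while its median differed little from siControl.

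**Figure D3:**
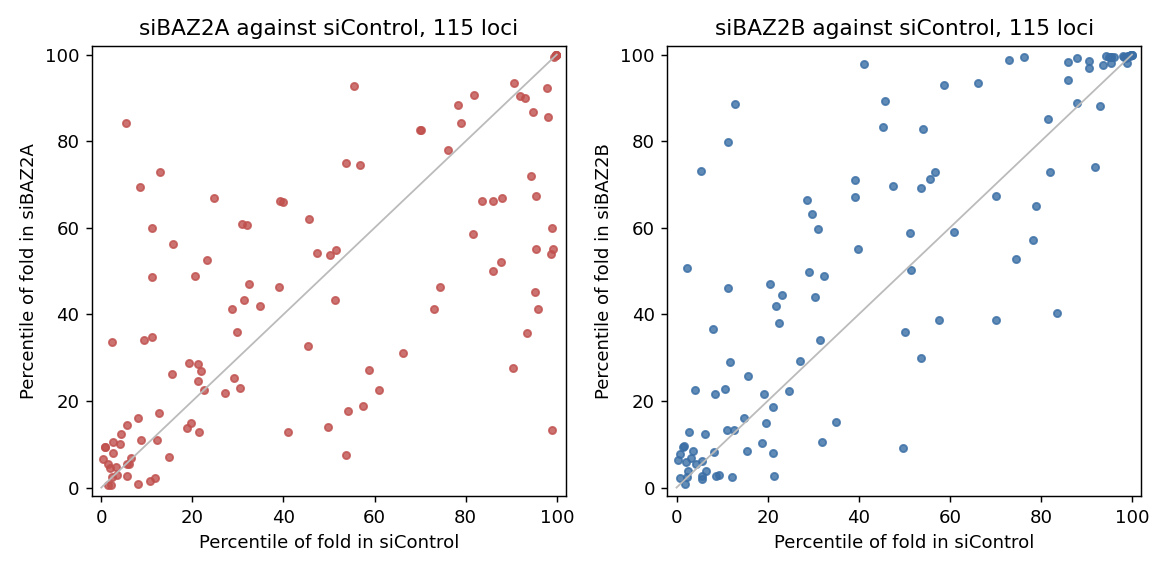
Percentile of fold in siBAZ2A (left) and siBAZ2B (right) against that in siControl for the 115 outside loci in all 3 lists, each point 1 locus and the grey line equality. Of the 115 loci, 25 stood at least 20 points lower and 18 at least 20 higher in siBAZ2A. In siBAZ2B 7 stood at least 20 points lower and 24 at least 20 higher.

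Most outside loci lay well away from promoters marked by H3K4me3. The 667 loci on sequences that carry an H3K4me3 peak had a median distance of 23853 bp to the nearest one (quartiles 7385 and 70656.5 bp). Of these, 31 lay within 1 kb (4.65%), 179 at 1 to 10 kb (26.8%), 323 at 10 to 100 kb (48.4%), 122 at 100 kb to 1 Mb (18.3%) and 12 farther (1.80%). Loci within 1 kb were weak, with a median percentile of 7.41 in siControl and 11.1 in siBAZ2B, and none of them reached the strongest decile of a list. Those at 10 to 100 kb stood at 31.0 and 42.0, so loci on the rim of a marked region were not the strong ones. In siBAZ2A the medians were 31.4 and 32.0 and did not show that order.

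Within the H3K4me3-free stretch around them, outside loci leaned towards its edges. The 641 loci with an H3K4me3 peak on both sides sat in stretches with a median length of 128003 bp. When the way from a flanking peak to the middle of the stretch was cut into 4 equal parts, 210 loci (32.8%) lay in the part next to the peak and 148 (23.1%), 140 (21.8%) and 143 (22.3%) in the others. For 413 of the 641 (64.4%), no peak number of the H3K4me3 run was missing between the flanking peaks, so the run had no H3K4me3 peak anywhere in the stretch. For the other 228 (35.6%) at least 1 dropped peak lay in the stretch and could touch the locus.

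Within 1 kb of an H3K4me3 peak, 20 of the 31 outside loci were held by 1 list (64.5%), close to the 59.2% of all 667. The nearest outside loci were chr22:40897264-40897714, 11 bp from an H3K4me3 peak, chr14:77422929-77423438 at 22 bp, chr3:48633041-48633417 at 41 bp and chr22:45097673-45097971 at 57 bp, all held by siBAZ2B alone at folds of 4.50, 4.27, 5.21 and 5.01. chr19:3276116-3276675, at 24 bp, was held by all 3 lists at folds of 8.68, 9.23 and 6.79. Just inside the border, the fewest shared bases were 5 at chr10:101597907-101598205, 36 at chr6_dbb_hap3:3068063-3068689, 48 at chr16:5252443-5252741, 57 at chr2:25301426-25301840 and 61 at chr4:190943414-190943749, each held by 1 list, at percentiles of 49.6, 13.0, 5.70, 32.6 and 59.4.

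**Figure D4:**
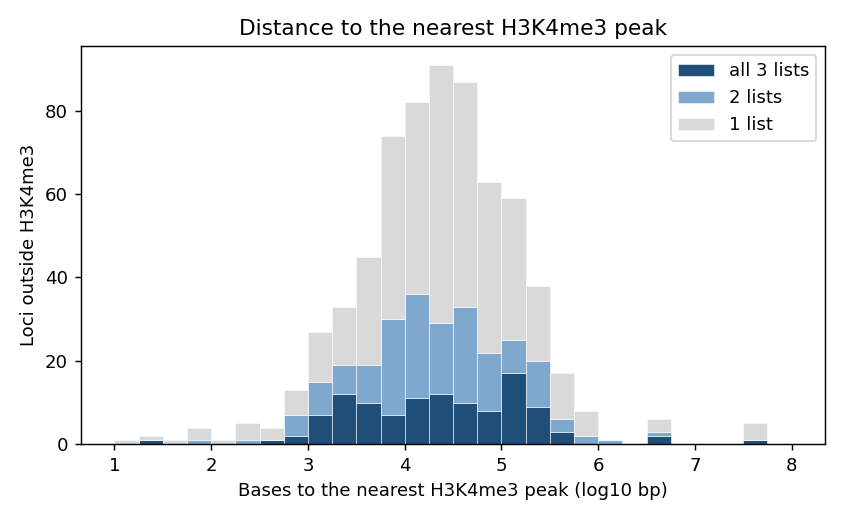
Number of outside loci (y axis) by bases to the nearest H3K4me3 peak on a log10 scale (x axis), stacked by whether 1, 2 or all 3 lists hold the locus, for the 667 loci on sequences with an H3K4me3 peak. The median is 23853 bp, and 12 loci lie beyond 1 Mb.

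Outside loci were closer to chromosome ends than loci on H3K4me3. Chromosome lengths were not used here, so the far end was set at the last peak of any list. On chromosomes 1 to 22 and X, 173 of 631 outside loci lay within 5 Mb of an end, 27.4% (24.1 to 31.0), against 15.2% of 5390 loci on H3K4me3 (14.2 to 16.2). Within 1 Mb the shares were 11.6% (9.30 to 14.3) and 4.29% (3.78 to 4.86), and within 0.1 Mb 2.22% (1.33 to 3.69) and 0.65% (0.47 to 0.90). Outside loci near an end were about as strong as the others, with median percentiles of 23.1 and 23.5 in siControl, 28.1 and 30.4 in siBAZ2A and 37.5 and 35.6 in siBAZ2B. No test of these shares was made, since neighbouring loci are not independent.

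Some of these loci were the outermost of their chromosome arm, where the reference runs into telomeric and subtelomeric repeats. chr4:9872-10325 had folds of 9.57, 7.92 and 11.9 in siControl, siBAZ2A and siBAZ2B. chr15:102521066-102521544, the last peak of chromosome 15, had 12.9, 9.39 and 13.6, and chr20:62918351-62918908, the last of chromosome 20, had 11.2, 6.76 and 10.5. chr2:10727-11216 was held by siControl and siBAZ2B (7.05 and 9.64) and not by siBAZ2A. These 4 were chosen after their values were seen. Of all 14 outside loci within 0.1 Mb of an end, siControl held 10, siBAZ2A 8 and siBAZ2B 13, where they held 47.8%, 43.4% and 66.8% of all outside loci. All 3 lists held 6 of the 14, and siBAZ2A gave the lowest percentile in 6 of these 6, where it did so in 45 of all 115 outside loci in 3 lists (39.1%). The siBAZ2A values come from 1 run, and this was not tested. Far ends were set at the last peak, so the chromosome 15 and 20 loci lay 0 bp from an end by that rule. Distances to the true chromosome ends were not measured. The 14 and the 6 may therefore include loci farther than 0.1 Mb from a true end.

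About 1 in 3 outside loci had an outside neighbour within 100 kb. Chained at that distance, 234 loci (34.0%) fell into 88 groups and 455 stood alone. The group with most loci on a numbered chromosome was chr2:92269252-92324651, next to the centromere of chromosome 2, with 9 loci in 55.4 kb. All 9 were in siBAZ2B, 5 in siControl and 1 in siBAZ2A, the locus chr2:92290640-92291669 with folds of 7.58 in siControl, 5.76 in siBAZ2A and 6.54 in siBAZ2B. Beside the centromere of chromosome 10, 6 loci lay in chr10:42527833-42600357, all in siControl and siBAZ2B and 3 in siBAZ2A. On chromosome 11, chr11:51580293-51591338 held 5 loci, the nearest 3576422 bp from any H3K4me3 peak. siControl held 3 of them, siBAZ2A 2 and siBAZ2B 5, none above percentile 42.8 of its list.

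Not every group followed this order. chr7:102130974-102279266 held 7 loci, all 7 in siBAZ2A and 5 in each other list, with 1 locus on H3K4me3 between them. Its strongest, chr7:102145870-102146441, had folds of 8.92, 10.1 and 7.16, highest in siBAZ2A. chr17:965835-1018848 held 4 loci, each in all 3 lists at folds of 3.52 to 5.33. It was 1 of several groups with 4 loci and was picked with the values known. The groups of chromosomes 2 and 10 and those of chromosomes 7 and 17 thus differed in how siBAZ2A held them, which was not tested. Nor was it tested whether any group lies in repeated sequence, where reads can map to several places.

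By chromosome, the share of G4 loci that lay outside H3K4me3 ran from 5.05% on chromosome 16 (16 of 317) to 69.6% on chromosome Y (16 of 23). Leaving aside chromosome M, with 1 of 3 loci outside, chromosomes 22 (23.3%, 28 of 120), 21 (19.6%, 11 of 56), 8 (18.4%, 47 of 255) and 20 (16.2%, 29 of 179) stood next. Chromosome 2 held the most outside loci, 70 of 454 (15.4%). The lowest shares were on chromosomes 16, 12 (5.49%), 19 (6.02%), 17 (6.17%) and X (6.21%). The small chromosomes thus fell at both ends of the order.

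**Figure D5:**
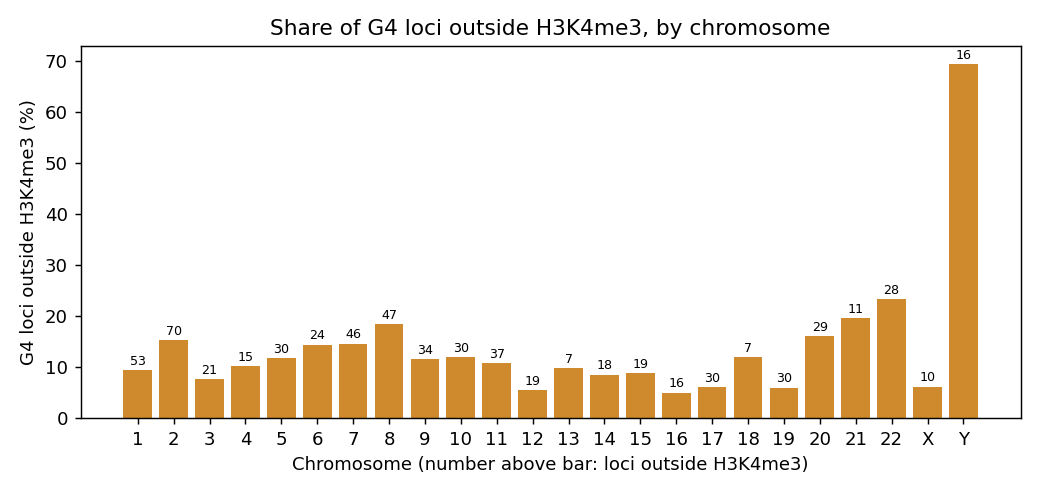
Percent of the G4 loci of each chromosome that lay outside H3K4me3 (y axis), with the number of outside loci above each bar. Chromosome Y stands highest (16 of 23 loci, 69.6%), followed by chromosome 22 (23.3%), and chromosome 16 lowest (5.05%).

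Chromosome Y, chromosome M and the contigs that stand beside the assembled chromosomes held 58 outside loci, 8.42% of the 689, and 2.30% of the loci on H3K4me3. They were 16 loci on chromosome Y, 1 on M, 25 on unplaced contigs, 6 on contigs assigned to a chromosome and 10 on haplotype contigs. Of these 58, siControl held 33, siBAZ2A 19 and siBAZ2B 40, where they held 47.8%, 43.4% and 66.8% of all outside loci. The unplaced contigs showed the widest gap, with 25 outside loci, of which siControl held 21, siBAZ2B 17 and siBAZ2A 6. Many of these 25 lay on 2 contigs. The contig Un_gl000225 carried 10 of them in 124 kb and no H3K4me3 peak. siControl held 7 of them, siBAZ2B 6 and siBAZ2A 1. Un_gl000216 carried 4 of the 25, of which siControl held 4, siBAZ2B 2 and siBAZ2A 0. Un_gl000212:40433-41281 was the strongest locus on a contig, in all 3 lists at folds of 11.1, 9.56 and 12.7. Un_gl000222:84088-84622 was in siControl and siBAZ2B at 7.75 and 11.3, and Un_gl000227:73644-74164 in all 3 at 8.28, 6.62 and 11.1.

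Un_gl000220, the contig that carries ribosomal RNA gene sequence, the known target of BAZ2A, held 6 G4 loci, of which 2 were outside H3K4me3. One was in both knockdowns, at percentiles 0.094 (siBAZ2A) and 0.12 (siBAZ2B), and the other in siControl alone, at 0.15. These 2 are too few and too weak to give a direction. The 10 outside loci on haplotype contigs lay on alternative versions of the MHC region of chromosome 6, and none was in all 3 lists. Since these contigs repeat each other, they are not separate sites.

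Loci held by a single list, or by both knockdowns only, had folds of at most 9.81. For siControl alone they were led by chr15:40975139-40975587 (fold 8.89, rank 613), chr20:36035611-36035929 (8.85) and chr1:11582602-11583013 (8.76). For both knockdowns without siControl, chr14:32953698-32954244 had folds of 8.10 in siBAZ2A and 8.44 in siBAZ2B, 280603 bp from H3K4me3, followed by chr1:55894790-55895280 with 8.93 and 7.19 and chr3:12851472-12852134 with 9.81 and 6.74. siBAZ2A alone was led by chr7:151384808-151385177 (9.10, rank 735), and siBAZ2B alone by chr3:101158442-101158866 (9.65, rank 195), chr8:145180487-145180937 (9.38) and chr18:63507-63993 (9.36). siBAZ2B alone thus held loci of higher rank than siControl alone or siBAZ2A alone.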

How the data were processed

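BG4 and H3K4me3 CUT&Tag of A549 cells was analysed from 4 deposited peak lists, 1 per group of 4 libraries. MACS2 2.1.4, Bowtie2 2.4.5, SAMtools 1.15.1, Picard and bedtools were used on hg19 and dm6, per the submitters' processing notes. A peak stayed in a list if at least 2 replicates had it, per the labels. Each deposited peak carries a fold enrichment (a ratio) and a −log10 q, both from the authors' peak caller. The fold was used only to rank peaks within a list.

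Peaks sharing 1 base were merged into loci, and a locus took its highest fold per list. Coordinates are hg19, 1-based, and distances count the bases between locus and peak. The members, tests and alternatives were chosen with earlier results of these data known. Loci were named by rank of fold, of distance or of group size within each class, except where stated. An hg19 genome and annotation were not used here, so loci carry no sequence or gene name. Merging and distances were tested on simulated peaks. Alternatives are given in the closing section. Software was SciPy 1.17.1, NumPy 2.4.6, pandas 2.3.3 and matplotlib 3.10.9 on Python 3.11.15.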

Additional observations from a re-analysis of the deposited data

How the results depend on the processing

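Of 66 alternative values of the main results, 46 stayed within the interval of the value reported. Defining outside by the stronger 50% of H3K4me3 peaks moved every one: 52.5% of loci were then outside, 38.1% of these in all 3 lists and 6.78% in siControl and siBAZ2B only, with median percentiles of 43.0, 43.8 and 42.4 in siControl, siBAZ2A and siBAZ2B, a median distance of 54997 bp, 20.4% near ends and 3.50% on chromosome M, Y and contigs. With the stronger 50% of BG4 peaks, 6.47% were outside, at median percentiles of 48.9 (siControl) and 48.5 (siBAZ2B) of the shortened lists, 35043 bp and 31.7% near ends. With lists of equal length, 9.92% were outside, 13.1% of these in all 3 lists, and the siBAZ2B median was 40.1. A −log10 q of at least 5 gave a median distance of 30207 bp, ranking by −log10 q a siBAZ2B median of 39.8, and a 1 Mb window 11.6% near ends. Among results chosen after seeing the data, ranking by −log10 q moved the following: the outside loci in the strongest decile of siControl had a median percentile of 96.3 in siBAZ2A in place of 78.7, and 8 in place of 14 outside peaks were among the 100 strongest of siControl. By that rank siBAZ2A kept 43.4% of outside siControl loci between percentiles 20 and 80 (82.7% on H3K4me3). siBAZ2B kept 68.7% of them (86.4% on H3K4me3). Leaving aside the stronger 50% of H3K4me3 peaks, the other alternatives gave 27.5 to 38% for siBAZ2A and 51.7 to 62.8% for siBAZ2B outside H3K4me3, and 74.1 to 82.8% and 66.2 to 86.2% on it. Read depth, which limits how many weak peaks a list holds, is not known. No paired analysis was possible because the files hold 1 merged list per group, which also means that leaving out a replicate could not be run.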

Other observations

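Neighbouring outside loci on chromosome 1 had modest fold and a high −log10 q in every list. chr1:564690-565351 had folds of 4.67, 4.79 and 4.67 in siControl, siBAZ2A and siBAZ2B with −log10 q of 40.0, 48.7 and 48.8. At chr1:565959-566737 the folds were 4.33, 4.45 and 4.45, with −log10 q of 34.2, 42.4 and 44.7. At chr1:567253-567944 they were 5.73, 5.97 and 5.87, with −log10 q of 61.8, 77.4 and 79.2. Fold and −log10 q thus rank these 3 loci differently, and they were chosen after their values were seen. Whether reads from repeated sequence contributed to them was not tested.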
